A study of Mus musculus with 9 samples.

Results

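Nfe2l2, which encodes the transcription factor Nrf2, its inhibitor Keap1 and 8 antioxidant genes that Nrf2 is known to activate (Hmox1, Nqo1, Gclm, Gclc, Slc7a11, Gsr, Txnrd1 and Srxn1) were followed in mouse embryonic fibroblasts (MEFs) under hyperosmotic stress. These 10 genes were chosen by symbol, with earlier results of these data known, from the 35275 genes of the expression table. All 10 were among the 13082 genes that passed a filter on low counts and were tested. Wild type C57Bl/6 MEFs stayed in iso-osmolar medium (300 mOsm) as controls or were treated for 3 h with medium brought to 500 mOsm by 200 mM sucrose (low-intensity stress) or to 600 mOsm by 300 mM sucrose (high-intensity stress). Each treatment was sequenced as 3 libraries of poly-T purified mRNA. The study compared the intensities to separate an adaptive from an inflammatory programme of gene expression, and the comparisons below ask how the antioxidant genes stood in each.

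Nrf2 is a basic leucine zipper protein that binds antioxidant response elements (AREs) as a dimer with a small Maf protein. In unstressed cells Keap1 holds Nrf2 and passes it to a Cul3 ubiquitin ligase for degradation, and electrophiles or oxidants that modify Keap1 let newly made Nrf2 accumulate. Nrf2 activity is thus set largely at the protein level, which mRNA libraries do not measure, and the levels of its target mRNAs are commonly used as its readout.

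The total count on genes per library lay between 21716042 and 26740832, and the counts on the members ran from 49 on Slc7a11 to 15083 on Txnrd1 in a library. Levels are given as CPM (counts scaled by edgeR's TMM method to a common library total), or as the deposited FPKM where genes of different length are compared. Across genes, edgeR put the common biological coefficient of variation at 0.0756. The fibroblast label was checked against 10 markers, whose summed level was 20200 to 24600 CPM per library, although Dcn and Lum stayed under 1 CPM in every library. Most of the sum was Col1a1, Fn1, Vim and Col1a2. Col3a1 (43.3 to 50.9 CPM in iso-osmolar medium) and Pdgfra (36.7 to 38.5 CPM) were lower in every treated library, at 17.6 to 32.5 and 21.9 to 26.7 CPM. Pdgfrb was higher in every treated library. Of 5 endothelial markers, 4 were under 1 CPM throughout, while Pecam1 brought their sum from 0.86 to 1.06 CPM in iso-osmolar medium to between 12.2 and 13.7 CPM at 500 mOsm. The 5 macrophage markers in the table summed to between 11.4 and 17.3 CPM, mostly Csf1r, with Tyrobp and Ptprc near 0, and epithelial, muscle or neural markers to at most 4.84 CPM. The epithelial sum went from 0.0819 to 0.41 CPM in iso-osmolar medium to between 3.85 and 4.84 CPM at 500 mOsm, mostly Cdh1. The neural sum went from 1.1 to 1.88 CPM to between 3.47 and 4.06 CPM. The part of these markers in the results was not tested. In bulk libraries, less of an mRNA per cell and fewer cells that carry it cannot be told apart.

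The windows around the annotated starts of these genes differ in whether they carry the letters of an ARE, which is why short stretches are shown before the levels. RefSeq windows of 300 bases (250 before and 50 after a start, GRCm38.p6) were at hand for 7 of the 10 members, as 9 windows. They were searched on both strands for the ARE core TGACNNNGC, which 12.4% of all 32851 windows hold. The core was found in windows of 4 members, and each is printed 5′ to 3′ on the strand where it reads as spelled, with the ARE letters in capitals.

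Nfe2l2 (chr2:75704885-75704913, minus strand): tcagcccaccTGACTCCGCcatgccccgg
Gclm (chr3:122245413-122245441, minus strand): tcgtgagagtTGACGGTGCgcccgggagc
Txnrd1 (chr10:82859104-82859132, minus strand): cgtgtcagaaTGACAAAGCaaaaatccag
Srxn1 (chr2:152105542-152105570, minus strand): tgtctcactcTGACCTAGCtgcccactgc

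Counted from the start site, the matches begin 240 bases before it in Nfe2l2, 134 bases before it in Gclm and 92 bases before it in Txnrd1, in 1 of the 3 windows of that gene, whereas the match in Srxn1 begins 28 bases after the start site. The window of Slc7a11 had no such core but held the amino acid response core TGATGNAA, the element read by Atf4, at 2 places, 66 and 47 bases before the start. That core is present in 3.97% of all windows. The stretch is printed on the minus strand, which is the strand of the gene, with both matches in capitals, of which the latter reads on the opposite strand.

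Slc7a11 (chr3:50443643-50443689, minus strand): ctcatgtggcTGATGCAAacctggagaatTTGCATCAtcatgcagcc

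Windows of Keap1 and Nqo1 held neither core. The heat shock core GAANNTTC (7.86% of all windows) and the TonE core bound by TonEBP (4.96%) were not found in any member window. These matches describe letters and not binding, and no match says only that the letters are not in the window.

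None of the 10 genes was called higher in either hyperosmotic medium, and every change that was called was a fall. At 500 mOsm, Nfe2l2, Hmox1, Gclc and Srxn1 fell relative to iso-osmolar medium (edgeR's quasi-likelihood test, adjusted p under 0.05), 4 of 10 members where 14.8% of all genes tested fell. At 600 mOsm, Gclm, Txnrd1 and Gsr fell as well, which made 7 of 10 members where 20.0% of all genes fell. Between the intensities, Hmox1, Gclm and Gsr were lower at 600 than at 500 mOsm, 3 of 10 members where 17.2% of all genes were lower. The shares of all genes that were higher in the same 3 comparisons were 13.2%, 15.1% and 11.9%, against 0 of 10 members in each. These shares of all genes include genes with far lower counts than most members, where a change of a given size is harder to call. No share was taken over genes of a like level. At an unadjusted p under 0.05, 1 member was higher in each comparison, namely Keap1 at 500 mOsm, Slc7a11 at 600 mOsm and Nqo1 at 600 against 500 mOsm. DESeq2 and limma on log2 FPKM also called 0 members higher, and they called 4, 7 and 3 members lower. The members had a median log2 fold change of -0.11 at 500 mOsm and -0.24 at 600 mOsm, against 0.013 and 0.0075 over all genes tested. The 2 comparisons with iso-osmolar medium share its 3 libraries. Nothing in the labels says that the libraries came from separate cultures, so the p-values measure the spread between these libraries, which may be technical.

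**Figure D1:**
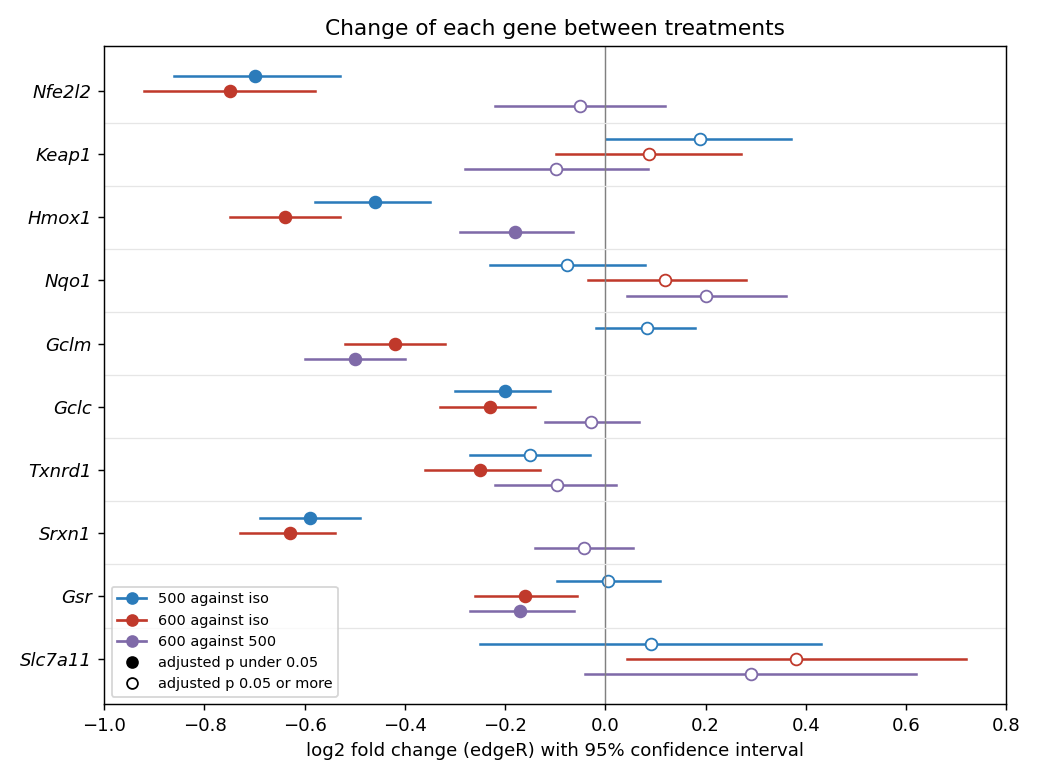
Log2 fold change of each gene (x axis, edgeR, with its 95% confidence interval) for 500 mOsm against iso-osmolar medium, 600 mOsm against iso-osmolar medium and 600 against 500 mOsm. Filled points passed an adjusted p of 0.05, and each of them lies left of 0, from -0.75 for Nfe2l2 to -0.16 for Gsr.

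Nfe2l2 (ENSMUSG00000015839, chr2:75675513-75704641 in mm10, minus strand) fell at both intensities to about the same level. It stood at 49.5, 41.5 and 44.4 CPM in the iso-osmolar libraries, at 27.7, 26.6 and 29.2 CPM at 500 mOsm and at 26, 28.5 and 26.1 CPM at 600 mOsm. Every treated library lay below every iso-osmolar library, and the intensities overlapped. Nfe2l2 mRNA thus fell by 38.3% at 500 mOsm (log2 fold change -0.70, SE 0.0775, edgeR adjusted p = 2.04e-05) and fell by 40.4% at 600 mOsm (-0.75, SE 0.0779, adjusted p = 1.37e-05). The step from 500 to 600 mOsm was -0.05 on the log2 scale (95% interval -0.22 to 0.12, edgeR adjusted p = 0.682).

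Keap1 (ENSMUSG00000003308, chr9:21229730-21239332, minus strand), the adaptor that presents Nrf2 for degradation, had no called change. Its iso-osmolar libraries held 59.7, 67.2 and 61.2 CPM, those at 500 mOsm 73.6, 78.5 and 62.0 CPM, and those at 600 mOsm 68.4, 61.6 and 69.8 CPM. The 500 mOsm libraries were split, with replicate 3 inside the iso-osmolar range and the other two above it. The log2 fold change was 0.19 at 500 mOsm (95% interval 0.0019 to 0.37, edgeR adjusted p = 0.128) and 0.087 at 600 mOsm (95% interval -0.098 to 0.27, adjusted p = 0.462). Without replicate 3 of the 500 mOsm libraries Keap1 was called higher there, at 0.28 with an edgeR adjusted p of 0.0161. Keap1 shares 510 of its 4693 exon bases with the antisense gene Gm16754, which stood at a mean of 0.313 CPM or less in each treatment. The strand setting of the counting is not given in the sources used here.

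The ratio of Nfe2l2 to Keap1, taken per length from the FPKM of a library, was lower in each treated library than in any iso-osmolar library. It was 1.5, 1.11 and 1.31 in the iso-osmolar libraries, 0.68, 0.612 and 0.849 at 500 mOsm, and 0.687, 0.835 and 0.676 at 600 mOsm. The ratio thus lay above 1 in each iso-osmolar library and below 1 in each treated library. Which mRNA of the pair was the more abundant rests on the listed lengths, 2475 bases for Nfe2l2 and 4470 for Keap1. In CPM, not scaled to length, Keap1 was the higher in every library. The log2 ratio differed from iso-osmolar medium by -0.88 at 500 mOsm and by -0.83 at 600 mOsm (exact two-sided permutation test, n = 3 per group, p = 0.1 each, the smallest that 3 against 3 libraries allow). Between the intensities it differed by 0.045 (exact permutation p = 0.9).

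**Figure D2:**
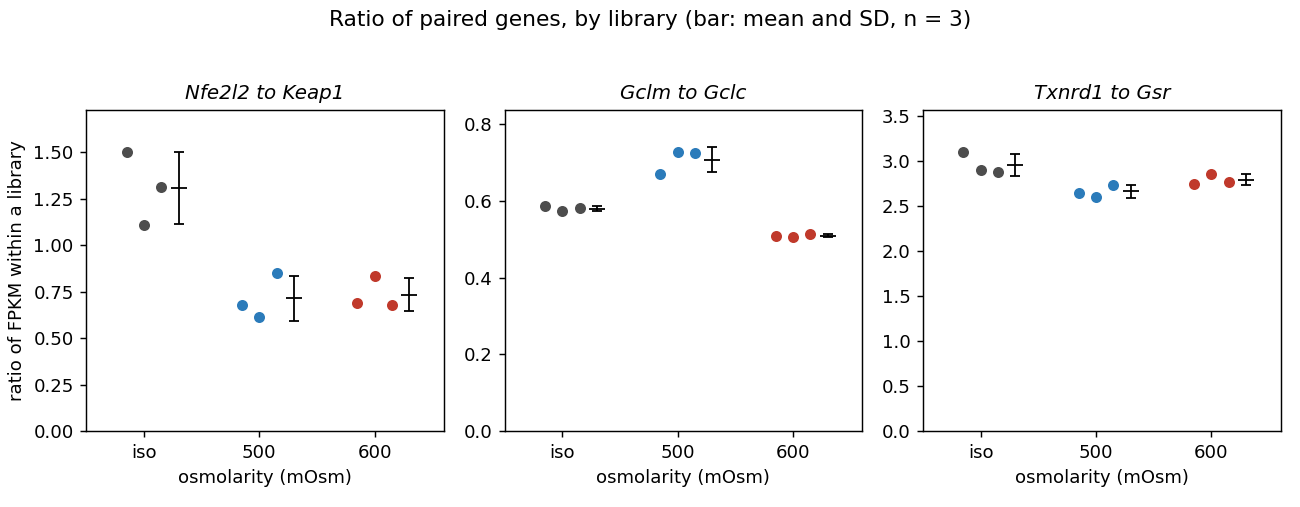
Ratio of the FPKM of paired genes within each library (y axis, from 0) by osmolarity (x axis), with the mean and SD of 3 libraries beside the points. The Nfe2l2 to Keap1 ratio lies above 1 in the iso-osmolar libraries and below 1 in the 6 treated libraries, and the Gclm to Gclc ratio is highest at 500 mOsm and lowest at 600 mOsm without overlap.

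Hmox1 (ENSMUSG00000005413, chr8:75093591-75100596, plus strand), the inducible heme oxygenase that splits heme into biliverdin, carbon monoxide and iron, was the only member called lower in all 3 comparisons. Its levels were 137, 148 and 147 CPM in iso-osmolar medium, 100, 110 and 104 CPM at 500 mOsm and 92.9, 94.3 and 90.1 CPM at 600 mOsm. The 3 groups did not overlap. Hmox1 fell by 27.5% at 500 mOsm (log2 fold change -0.46, SE 0.0517, edgeR adjusted p = 2.08e-05) and fell by 35.9% at 600 mOsm (-0.64, SE 0.052, adjusted p = 1.53e-06). The further step from 500 to 600 mOsm was small, at -0.18 (95% interval -0.29 to -0.065, edgeR adjusted p = 0.0219), and this call was lost without replicate 2 of the 500 mOsm libraries (-0.13, adjusted p = 0.107), without replicate 1 (-0.18, 0.0641) or replicate 3 (-0.16, 0.078) of the 600 mOsm libraries, and with no filter on low counts (-0.16, 0.088).

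Nqo1 (ENSMUSG00000003849, chr8:107388225-107403206, minus strand), the quinone reductase that is a standard reporter of Nrf2 activity, did not change by the test. It stood at 80.5, 80.1 and 74.1 CPM in iso-osmolar medium, at 67.2, 71.8 and 83.3 CPM at 500 mOsm and at 86.9, 84.4 and 84.2 CPM at 600 mOsm. The 600 mOsm libraries lay above all others, and the 500 mOsm libraries spread past both ends of the iso-osmolar range. The log2 fold change was -0.077 at 500 mOsm (95% interval -0.23 to 0.08, edgeR adjusted p = 0.483) and 0.12 at 600 mOsm (95% interval -0.034 to 0.28, adjusted p = 0.211). Between the intensities it was 0.20 (95% interval 0.043 to 0.36, edgeR adjusted p = 0.055), and it was called without replicate 3 of the 500 mOsm libraries (0.29, adjusted p = 0.00396) and with no filter on low counts (0.22, adjusted p = 0.0136).

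The subunits of glutamate-cysteine ligase, the rate-limiting enzyme of glutathione synthesis, were called at different intensities. Gclm (ENSMUSG00000028124, chr3:122245557-122269984, plus strand), the modifier subunit, stood at 105, 106 and 102 CPM in iso-osmolar medium and at 107, 114 and 111 CPM at 500 mOsm, but at 76.8, 77.6 and 79.4 CPM at 600 mOsm. Gclm fell by 25.2% at 600 mOsm (log2 fold change -0.42, SE 0.0469, edgeR adjusted p = 2.45e-05) and fell by 29.4% from 500 to 600 mOsm (-0.50, SE 0.0468, adjusted p = 5.88e-06). At 500 mOsm its log2 fold change was 0.083 (95% interval -0.018 to 0.18, edgeR adjusted p = 0.218), although the 3 libraries lay above those of iso-osmolar medium. Gclc (ENSMUSG00000032350, chr9:77754535-77794485, plus strand), the catalytic subunit, was at 127, 130 and 124 CPM in iso-osmolar medium, at 112, 111 and 108 CPM at 500 mOsm and at 107, 109 and 109 CPM at 600 mOsm. Gclc had thus fallen at 500 mOsm already (fell by 13.2%, log2 fold change -0.20, SE 0.0443, edgeR adjusted p = 0.0037) and was at a similar level at 600 mOsm (fell by 14.9%, -0.23, adjusted p = 0.00152), with a step between the intensities of -0.029 (95% interval -0.12 to 0.068).

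The FPKM ratio of Gclm to Gclc was highest at 500 mOsm and lowest at 600 mOsm. It was 0.586, 0.573 and 0.581 in the iso-osmolar libraries, 0.671, 0.727 and 0.725 at 500 mOsm and 0.509, 0.505 and 0.514 at 600 mOsm. The groups did not overlap, and the log2 ratio differed by 0.29 at 500 mOsm, by -0.19 at 600 mOsm and by -0.47 between the intensities (exact permutation test, n = 3 per group, p = 0.1 each, the smallest allowed). A non-coding transcript of Gclm shares a stretch of 287 bases with Ppia (cyclophilin A) at 97.9% identity, and an exon of Gclm overlaps the pseudogene Gm6061 by 244 bases and the antisense gene Gm17494 by 296 bases, of 6291 exon bases in all. Ppia stood at 1050 ± 23.7, 1070 ± 90.2 and 1170 ± 27.6 CPM (SD, n = 3) in iso-osmolar medium, at 500 and at 600 mOsm, and Gm6061 had 0 counts in every library. How the authors' counting assigned reads of such stretches was not tested.

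Slc7a11 (ENSMUSG00000027737, chr3:50364936-50443613, minus strand), the light chain of the cystine and glutamate exchanger that supplies cysteine for glutathione, had the lowest level of the members. It stood at 2.23, 2.91 and 2.70 CPM in iso-osmolar medium, at 3.24, 2.6 and 2.56 CPM at 500 mOsm and at 3.6, 3.31 and 3.33 CPM at 600 mOsm, from 49 to 86 reads per library. The 600 mOsm libraries lay above all others. The log2 fold change was 0.38 at 600 mOsm (95% interval 0.044 to 0.72, edgeR adjusted p = 0.0746) and 0.092 at 500 mOsm (95% interval -0.25 to 0.43, adjusted p = 0.72). With a trend on gene length removed from each library the value at 600 mOsm was 0.65 and was called (edgeR adjusted p = 0.00573), Slc7a11 being listed with a length of 9227 bases. Its transcript also holds 373 bases that match Tuba1b, an alpha-tubulin gene, in reverse orientation at 96.2% identity. Tuba1b rose at 600 mOsm, from 2660 ± 66.7 to 3190 ± 133 CPM (SD, n = 3, log2 fold change 0.26, edgeR adjusted p = 0.00106), and its part in the reads of Slc7a11 was not tested. The heavy chain of the exchanger, Slc3a2, named here after its values were seen, fell from 299 ± 6.1 to 260 ± 5.71 CPM at 500 mOsm (SD, n = 3, log2 fold change -0.20, edgeR adjusted p = 0.0057) and stood at 281 ± 13.7 CPM at 600 mOsm.

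Gsr (ENSMUSG00000031584, chr8:33652523-33698163, plus strand), glutathione reductase, which regenerates reduced glutathione with NADPH, had no detectable difference between iso-osmolar medium and 500 mOsm and fell at 600 mOsm. Its libraries held 165, 163 and 157 CPM in iso-osmolar medium, 158, 165 and 164 CPM at 500 mOsm and 150, 146 and 138 CPM at 600 mOsm. The log2 fold change at 500 mOsm was 0.0062 (95% interval -0.097 to 0.11). Gsr fell by 10.5% at 600 mOsm (log2 fold change -0.16, SE 0.0476, edgeR adjusted p = 0.0201) and fell by 10.9% from 500 to 600 mOsm (-0.17, SE 0.0475, adjusted p = 0.0192). Both calls depended on single libraries. The former was lost without replicate 1 (-0.15, adjusted p = 0.0696) or replicate 2 (-0.16, 0.0572) of the iso-osmolar libraries or replicate 3 of the 600 mOsm libraries (-0.13, 0.0807), and the latter without replicate 2 of the 500 mOsm libraries (-0.15, 0.074) or replicate 3 of the 600 mOsm libraries (-0.13, 0.0815). With no filter on low counts neither was called (edgeR adjusted p = 0.0696 and 0.103).

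Txnrd1 (ENSMUSG00000020250, chr10:82859206-82897724, plus strand), the cytosolic thioredoxin reductase, was the most abundant member. It stood at 654, 605 and 580 CPM in iso-osmolar medium, at 535, 548 and 575 CPM at 500 mOsm and at 529, 532 and 489 CPM at 600 mOsm. The 3 groups did not overlap, but their edges nearly touched. Txnrd1 fell by 15.7% at 600 mOsm (log2 fold change -0.25, SE 0.0545, edgeR adjusted p = 0.004). At 500 mOsm its log2 fold change of -0.15 missed the threshold (95% interval -0.27 to -0.03, edgeR adjusted p = 0.0606), and it passed without replicate 3 of the iso-osmolar (-0.19, adjusted p = 0.0346), of the 500 mOsm (-0.18, 0.0454) or of the 600 mOsm libraries (-0.15, 0.0462) and with no filter on low counts (-0.16, 0.0301). The FPKM ratio of Txnrd1 to Gsr, the reductases of the thioredoxin and glutathione systems, was 3.1, 2.9 and 2.88 in the iso-osmolar libraries, 2.65, 2.6 and 2.74 at 500 mOsm and 2.75, 2.86 and 2.77 at 600 mOsm, with log2 differences from iso-osmolar medium of -0.15 and -0.084 (exact permutation test, n = 3 per group, p = 0.1 each, the smallest allowed).

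Srxn1 (ENSMUSG00000032802, chr2:152105516-152111376, plus strand), sulfiredoxin, which repairs overoxidized peroxiredoxins, had the smallest p of the members in both comparisons with iso-osmolar medium. It was at 158, 156 and 151 CPM in iso-osmolar medium, at 104, 102 and 103 CPM at 500 mOsm and at 96.2, 102 and 101 CPM at 600 mOsm. Srxn1 fell by 33.6% at 500 mOsm (log2 fold change -0.59, SE 0.0449, edgeR adjusted p = 7.29e-07) and fell by 35.6% at 600 mOsm (-0.63, SE 0.045, adjusted p = 4.64e-07). As for Nfe2l2, the interval of the step between the intensities included 0, at -0.043 (95% interval -0.14 to 0.055, edgeR adjusted p = 0.521).

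**Figure D3:**
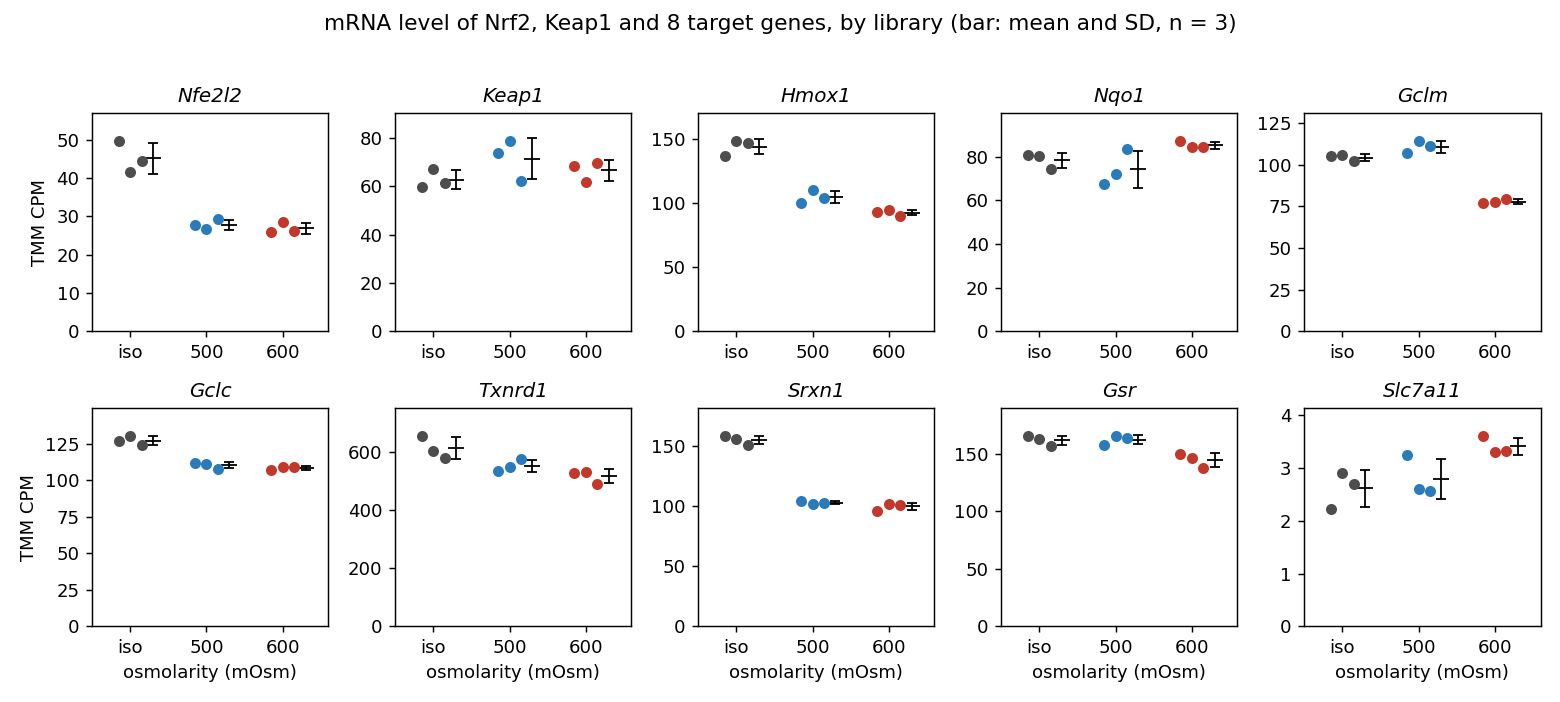
TMM-scaled CPM of the 10 genes (y axis, from 0, a scale of its own in each panel) by osmolarity (x axis), as 1 point per library with the mean and SD of 3 libraries beside them. Nfe2l2, Hmox1, Gclc, Srxn1 and, by a narrow margin, Txnrd1 are lower in all 6 treated libraries than in any iso-osmolar library. Txnrd1 was called only at 600 mOsm. Gclm and Gsr are lower only in the 3 libraries at 600 mOsm, and Keap1, Nqo1 and Slc7a11 have no called change.

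Compared per length, the members kept nearly one order across the treatments. In iso-osmolar medium the mean FPKM was 180 ± 11.7 for Txnrd1, 90.2 ± 3.31 for Hmox1, 60.8 ± 1.52 for Gsr, 55.3 ± 1.24 for Srxn1 and 50.6 ± 2.17 for Nqo1 (SD, n = 3). Below these came Gclc at 37.3 ± 0.627, Gclm at 21.6 ± 0.336, Nfe2l2 at 18.3 ± 1.81, Keap1 at 14.1 ± 0.747 and Slc7a11 at 0.284 ± 0.0355 FPKM. No neighbours in this order overlapped over the 3 libraries. At 500 mOsm 2 pairs of neighbours had changed places. Srxn1 dropped below Nqo1 (36.7 ± 0.499 against 47.9 ± 5.72 FPKM), and Nfe2l2 dropped below Keap1 (11.3 ± 0.641 against 16.0 ± 1.74 FPKM). At 600 mOsm Hmox1, Nqo1 and Gsr came to 57.1 ± 2.35, 54.3 ± 1.39 and 53.7 ± 2.95 FPKM and overlapped from neighbour to neighbour, which they did not in the other treatments.

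The wider Nrf2 circuit was described by lists of genes given by symbol, which were chosen with earlier results of these data known. Of 16 partners, relatives, repressors and degradation factors of Nrf2, 5 rose and 3 fell at 500 mOsm, and 3 rose and 10 fell at 600 mOsm (edgeR adjusted p under 0.05). These are 31.2% and 18.8% of the list at 500 mOsm, where 13.2% of all genes tested rose and 14.8% fell, and 18.8% and 62.5% at 600 mOsm, where 15.1% rose and 20.0% fell. The 3 that fell at 500 mOsm and the 3 that rose at 600 mOsm were thus near the shares of all genes. The 5 that rose at 500 mOsm became 3 to 6 with other processing or a library left out, and the lowest of these is near the share of all genes. The median log2 fold change was 0.055 and -0.50. With other processing, removal of a length trend included, or a library left out, the 10 that fell at 600 mOsm became 8 to 11. Their listed lengths ran from 1933 bases (Maff) to 10230 (Crebbp), and those of the 3 that rose from 1655 (Rbx1) to 2683 (Dpp3). The part of gene length in these counts was not tested further. In this list and those that follow, a count in either direction moved by at most 2 genes when a single library was left out. Other processing moved some counts further. Atf3, a stress-induced repressor and activator of the same leucine zipper class, stood at 2.82, 2.87 and 2.00 CPM in iso-osmolar medium, at 20.8, 19.5 and 22.9 CPM at 500 mOsm and at 3.81, 4.79 and 3.29 CPM at 600 mOsm (log2 fold change 3.04, edgeR adjusted p = 2.25e-08, and 0.62, 0.0158). Nfe2l3, a relative of Nrf2, also rose at 500 mOsm, from 0.449 ± 0.109 to 3.39 ± 0.513 CPM (SD, n = 3, log2 fold change 2.89, edgeR adjusted p = 7.31e-06) and stood at 0.215 ± 0.163 CPM at 600 mOsm. Both were called higher at 500 mOsm, where none of the 10 members was. More genes had a count in a library at 500 mOsm (18920 to 19222) than in iso-osmolar medium (16452 to 16871) or at 600 mOsm (17846 to 18031). The part of this in the rises of Nfe2l3 here and of Gstm4 below, both from few counts, was not tested. Nfe2l3 had 97, 81 and 82 counts in the 500 mOsm libraries. In iso-osmolar medium it had 8, 10 and 14 counts, and at 600 mOsm 3, 9 and 3. It passed the filter on low counts mainly through the 500 mOsm libraries, so its place among the 5 that rose is not independent of that group.

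Bach1, the repressor that competes with Nrf2 at AREs and is known for holding Hmox1 down until heme binds it, fell at both intensities. It stood at 14.7, 13.0 and 12.2 CPM in iso-osmolar medium, at 5.29, 3.73 and 5.11 CPM at 500 mOsm and at 5.44, 5.6 and 5.49 CPM at 600 mOsm (log2 fold change -1.50, edgeR adjusted p = 2.51e-06, and -1.27, 1.13e-05). Bach1 mRNA and Hmox1 mRNA were thus lower in the same libraries. At 600 mOsm Bach2 (log2 fold change -1.13, edgeR adjusted p = 0.0134) and Crebbp, a coactivator (-0.87, adjusted p = 4.28e-06), were also lower. Transcripts of Bach2 and Crebbp have stretches of 100 or more bases in common, at 95% identity or above, with 32 and 64 other genes. The other genes that rose at 500 mOsm were Maff, Rbx1 and Sqstm1, the others that fell there were Nfe2l1 and Mafg, and those that rose at 600 mOsm beside Atf3 were Rbx1 and Dpp3, all named after their values were seen. The 10 that fell at 600 mOsm were Bach1, Bach2, Crebbp, Maff, Sqstm1 and, likewise named afterwards, Nfe2l1 (log2 fold change -0.55, edgeR adjusted p = 2.09e-06), Gsk3b (-0.57, 1.57e-05), Fbxw11 (-0.51, 5.27e-05), Mafg (-0.48, 2.69e-05) and Cul3, the scaffold of the ligase that Keap1 serves (-0.34, 0.0375). Maff, a small Maf partner, turned with intensity, from 83.3 ± 6.2 to 107 ± 1.24 CPM at 500 mOsm and 51.2 ± 4.46 CPM at 600 mOsm (SD, n = 3, log2 fold change 0.36, edgeR adjusted p = 0.00147, and -0.70, 9.24e-06). Sqstm1, which can sequester Keap1, did likewise in a smaller range (566 ± 21.1, 642 ± 22.3 and 507 ± 21.5 CPM, log2 fold change 0.18 and -0.16, edgeR adjusted p = 0.0127 and 0.0216).

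**Figure D4:**
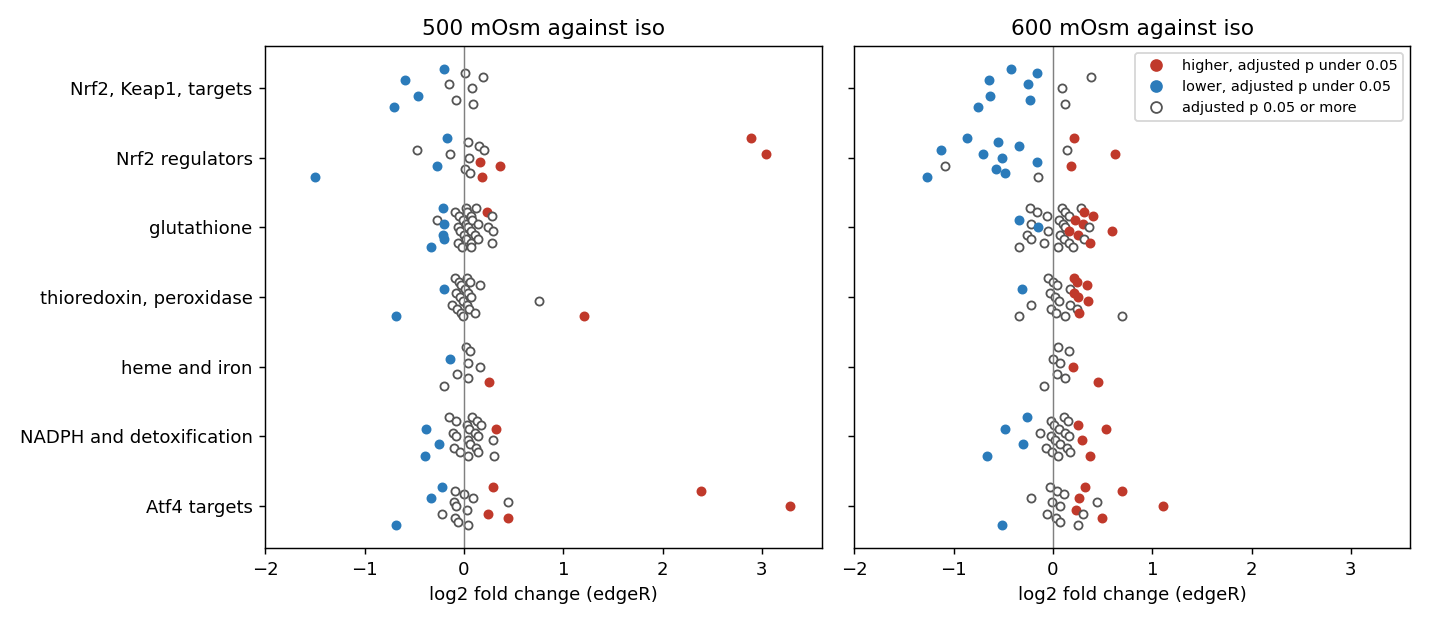
Log2 fold change (x axis, edgeR) of each tested gene of 7 lists (rows) at 500 mOsm, left, and 600 mOsm, right, against iso-osmolar medium, as 1 point per gene with filled points past an adjusted p of 0.05. In the top row the filled points are 4 at 500 and 7 at 600 mOsm and all lie left of 0, and the row of Nrf2 regulators has 10 filled points left of 0 at 600 mOsm. Gstm4, at 0 counts outside 500 mOsm, is not drawn.

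Of 34 tested genes of glutathione synthesis, use and export, out of 44 in the list, 2 rose and 5 fell at 500 mOsm, and 8 rose and 2 fell at 600 mOsm. The 5 that fell at 500 mOsm are 14.7% of the list, the share of all genes being 14.8%. The 8 that rose at 600 mOsm are 23.5%, against 15.1% of all genes, and the remaining counts are 5.9% each, against 13.2% higher at 500 mOsm and 20.0% lower at 600 mOsm. With other processing or a library left out, the 8 became 5 to 10, and the lowest of these is near the share of all genes. Their median log2 fold change was 0.029 and 0.10. At 600 mOsm the leading genes were Mgst3, a microsomal glutathione transferase (log2 fold change 0.59, edgeR adjusted p = 0.0102), Chac2, a glutathione-degrading cyclotransferase (0.40, 0.0484), and Gstm2, a cytosolic transferase (0.37, 0.000703). At 500 mOsm Chac1, a relative of Chac2, fell (-0.33, edgeR adjusted p = 0.0171) and Hagh, of the glyoxalase pathway, rose (0.23, 0.0419). Gstm4 had 0 counts in the iso-osmolar and 600 mOsm libraries and 25, 15 and 15 counts at 500 mOsm, at least 16.8-fold higher than a floor of 3 counts over the iso-osmolar group. It passed the filter on low counts through the 500 mOsm libraries alone, so its place among the 2 that rose there is not independent of that group. The other genes that fell at 500 mOsm were Slc3a2, Gsto1, Abcc1 and Abcc4, and those at 600 mOsm were Gsto1 and Abcc4, named after their values were seen. Likewise named afterwards, the other genes that rose at 600 mOsm were Gpx1, Gpx4, Gstm1, Gstp1 and Esd.

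Of 23 thioredoxin and peroxidase genes, 1 rose and 2 fell at 500 mOsm, and 7 rose and 1 fell at 600 mOsm, with medians of -0.0058 and 0.12 on the log2 scale. At 500 mOsm these are 4.3% higher and 8.7% lower, against 13.2% and 14.8% of all genes, and at 600 mOsm 30.4% higher and 4.3% lower, against 15.1% and 20.0%. The 7 that rose at 600 mOsm became 4 to 9 with other processing (removal of a length trend included) or a library left out. The lowest of these is near the share of all genes. The 7 were listed with lengths from 646 bases (Sod1) to 3570 (Sod3), and the part of length was not tested further. Sesn1, a sestrin, was the gene that rose at 500 mOsm, from 7.48 ± 0.984 to 17.3 ± 1.6 CPM (SD, n = 3, log2 fold change 1.21, edgeR adjusted p = 3.17e-06), while its relative Sesn2 fell from 15.5 ± 1.46 to 9.66 ± 0.895 CPM (-0.68, 0.000233). Txnrd3, a relative of Txnrd1, fell at both intensities (-0.20, edgeR adjusted p = 0.0255, and -0.31, 0.00171). Msra, a methionine sulfoxide reductase (0.35, edgeR adjusted p = 0.0141), and Sod3, the extracellular superoxide dismutase (0.34, 0.00434), led the genes that rose at 600 mOsm. The others that rose there were Txn1, Txn2, Prdx2, Prdx4 and Sod1, named after their values were seen.

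Of 9 tested genes of heme breakdown and iron other than Hmox1, 1 rose and 1 fell at 500 mOsm, and 2 rose and 0 fell at 600 mOsm (edgeR, also 0 fell there at an unadjusted p under 0.05), with medians of 0.036 and 0.074 on the log2 scale. With 11.1% of the list in each direction at 500 mOsm and 22.2% higher at 600 mOsm, against 13.2%, 14.8% and 15.1% of all genes, the counts of 1 or 2 genes were near the shares of all genes, and 20.0% of all genes fell at 600 mOsm. Ftl1, the ferritin light chain, rose at 500 mOsm (log2 fold change 0.25, edgeR adjusted p = 0.01) and shares transcript stretches with 13 other genes, and Slc11a2, an iron transporter, fell (-0.14, 0.0392). Blvrb, a biliverdin reductase, rose at 600 mOsm (0.45, edgeR adjusted p = 0.00244), as did Hmox2, the constitutive heme oxygenase (0.20, 0.0217), which overlaps the opposite-strand gene Cdip1 by 892 of 2217 exon bases. The 2 heme oxygenases were therefore called in opposite directions at 600 mOsm.

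Of 24 tested genes of NADPH supply and detoxification, out of 27 in the list, 1 rose and 3 fell at 500 mOsm, and 4 rose and 4 fell at 600 mOsm, with medians of 0.047 and 0.056 on the log2 scale. The 12.5% lower at 500 mOsm and the 16.7% in each direction at 600 mOsm were near the shares of all genes (14.8%, and 15.1% higher and 20.0% lower), and 4.2% were higher at 500 mOsm, against 13.2% of all genes. Osgin2 (log2 fold change -0.39 and -0.66, edgeR adjusted p = 0.0315 and 0.00155), Por, the electron donor of cytochromes P450 (-0.38 and -0.30, 0.000915 and 0.0041), and Ugdh, which makes UDP-glucuronate (-0.25 and -0.48, 0.00533 and 4.72e-05), fell at both intensities. Aldh3a1, an aldehyde dehydrogenase, rose at both (0.32 and 0.53, edgeR adjusted p = 0.0283 and 0.00135). The other genes called at 600 mOsm were Taldo1, Cbr1 and Adh7, which rose, and Me1, which fell, named after their values were seen.

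Slc7a11 is also a known target of Atf4, so that 19 genes of the Atf4 programme were set beside it. At 500 mOsm 5 rose and 3 fell, and at 600 mOsm 6 rose and 1 fell, with medians of 0.0048 and 0.11 on the log2 scale. The genes that rose are 26.3% and 31.6% of the list, against 13.2% and 15.1% of all genes, while the 15.8% that fell at 500 mOsm is near the 14.8% of all genes and the 5.3% that fell at 600 mOsm compares with 20.0%. Ddit4, an inhibitor of mTORC1 signalling, rose from 13.7 ± 2.3 to 133 ± 8.88 CPM at 500 mOsm and to 29.6 ± 2.37 CPM at 600 mOsm (SD, n = 3, log2 fold change 3.28, edgeR adjusted p = 2.47e-10, and 1.11, 6.52e-06). Nupr1, a stress-induced nuclear protein, rose at 500 mOsm (2.39, edgeR adjusted p = 5.23e-09), and Ddit3, the transcription factor CHOP, rose at 600 mOsm (0.70, 0.000253). Slc7a1, a cationic amino acid transporter, fell at both (-0.22 and -0.51, edgeR adjusted p = 0.00316 and 5.73e-06). Atf4 itself, Cth and Slc6a9 were the other genes that rose at 500 mOsm, named after their values were seen. Chac1 and Sesn2, which were also counted above in the glutathione list and in the thioredoxin and peroxidase list, were the others that fell there. The other genes that rose at 600 mOsm were Cth, Slc6a9, Phgdh and Slc1a4, likewise named afterwards. Atf4 stood at 364 ± 7.54, 430 ± 2.94 and 374 ± 19 CPM in iso-osmolar medium, at 500 and at 600 mOsm (SD, n = 3).

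By their pair of log2 fold changes against iso-osmolar medium, 3 groups of genes lay nearest to Nfe2l2, Hmox1 and Slc7a11 among the 10381 genes whose mean log2 CPM reached 1. Nearest to Nfe2l2 were Smad1 (Euclidean distance 0.027), Proser1 (0.0293) and Tbx3 (0.036). Nearest to Hmox1 were Csnk1g3 (0.00415), Rapgef3 (0.00679) and Tll1 (0.011), and nearest to Slc7a11 were Mfge8 (0.00599), Rpl36al (0.011) and Avpi1 (0.0143). No gene of the lists above was among these neighbours, and the distances rest on 3 treatments and 9 libraries. Each distance is smaller than the standard errors of the fold changes of its member, at least 0.0775 for Nfe2l2, 0.0517 for Hmox1 and 0.155 for Slc7a11. The order of the neighbours is thus within the error of these values.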

How the data were processed

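MEF mRNA was purified with poly-T beads and sequenced as paired-end libraries, and the processing notes of the submitters name CASAVA 1.8, STAR and mm10. The authors deposited for each gene and library a count of reads, not normalized, and FPKM, the count scaled to the listed gene length and the library total. The counting tool is not given in the sources used here. Columns of the authors' own comparisons (fold changes and p-values) were not used.

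Counts were scaled by TMM and tested in edgeR 4.0.16 (R 4.3.3) by the quasi-likelihood test, with treatment as factor, all 9 libraries in one fit and 13082 genes left by filterByExpr. Benjamini-Hochberg adjustment ran over these genes, with 0.05 as the threshold. The count test was tried on simulated data. FPKM ratios were compared by exact permutation. Shared sequence was searched with blastn 2.17.0 (at least 100 bases, 95% identity). Motifs were searched in RefSeq windows of GRCm38.p6.

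Members and lists were chosen with earlier results of these data known. Named genes were the members, up to 3 called genes of each list with the largest absolute log2 fold change in each comparison with iso-osmolar medium, and the 3 nearest neighbours of Nfe2l2, Hmox1 and Slc7a11. Of the symbols listed, Selenow, Selenot and Flvcr1 were not matched. Alternatives were RLE factors or library size alone, no filter or at least 10 counts in every library, DESeq2 1.42.0, limma 3.58.1 on log2 of FPKM plus 1 or plus 0.1 (genes with a mean FPKM of at least 0.1), fits restricted to the 2 groups in question, a length trend removed, the replicate number added as a block, and each library left out. A joint GC and length trend was added after seeing the data.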

Additional observations from a re-analysis of the deposited data

How the results depend on the processing

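Nfe2l2, Hmox1, Gclc and Srxn1 at both intensities, Gclm and Txnrd1 at 600 mOsm, and Gclm between the intensities kept their direction and call under all 20 alternatives. Over the 30 member fold changes, 568 values under an alternative stayed on their side, 11 lost and 14 gained a call, and 7 changed sign, each of a fold change not called. These were Gsr at 500 mOsm (-0.0098 with no filter, and -0.018 to 0.026 as libraries were left out), Slc7a11 at 500 mOsm (-0.023 to 0.17 as libraries were left out) and Gclc between the intensities (0.019 with the GC and length trend removed). The count of members higher was 1 at 500 mOsm with the GC and length trend removed (Keap1) and 0 to 1 as libraries were left out, 1 at 600 mOsm with the length trend or the GC and length trend removed (Slc7a11), and between the intensities 1 with no filter (Nqo1), 1 with the length trend removed (Slc7a11), 2 with the GC and length trend removed (Nqo1 and Slc7a11) and 0 to 1 as libraries were left out. The count lower between the intensities was 1 with no filter and 1 to 3 as libraries were left out, Gclm remaining each time. Among the wider lists, counts of genes at 500 mOsm that moved by over 1.5 times were Nrf2 regulators higher (5, range 3 to 6), glutathione higher (2, 1 to 3), thioredoxin and peroxidase higher (1, 1 to 2) and lower (2, 1 to 2), heme and iron higher and lower (1 each, 0 to 1), NADPH and detoxification higher (1, 0 to 3) and Atf4 targets lower (3, 2 to 5). At 600 mOsm they were Nrf2 regulators higher (3, 1 to 3), glutathione higher (8, 5 to 10) and lower (2, 1 to 4), thioredoxin and peroxidase higher (7, 4 to 9) and lower (1, 1 to 2), heme and iron higher (2, 1 to 3) and lower (0, 0 to 1) and Atf4 targets lower (1, 1 to 2). The causes were not tested. The replicate numbers did not pair the libraries (mean correlation of deviations -0.196 for the same number and 0.0995 for different numbers), and with the replicate block 4, 7 and 3 members were lower and 0 higher. Slc7a11 had 49 to 86 reads per library and the largest standard errors of the members.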
